A study of Mus musculus with 24 samples.

Results

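Imprinted genes are transcribed mainly from the copy inherited from 1 parent. The listed genes were Igf2, H19, Meg3, Dlk1, Peg3, Mest, Cdkn1c, Peg10, Plagl1 and Igf2r, 10 in all, taken by name. In the expression table of 22667 genes, 7 of them were found by symbol, and Peg10 was found by its identifier, ENSMUSG00000092035. H19 was not analysed here, and Meg3 was followed through its spliced reads and splicing events and not as a gene count. All 8 members with counts passed the low-count filter and were tested among 16627 genes.

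The cells were E14-derived mouse embryonic stem cells and their neural derivatives, either wild type (WT) or homozygous for the R749H substitution in Polr2a (slow/slow), which encodes the largest subunit of RNA polymerase II. The slow/slow cells were made by targeting E14 cells and then the remaining WT allele of the resulting WT/slow cells, with removal of the selection cassette by Flp each time, and the number of clones behind them was not stated. The study cultured embryonic stem cells (ESCs) in serum medium with LIF and passaged them in 2i medium with LIF before differentiation. Neural progenitor cells (NPCs) were collected at day 7 of differentiation in N2B27 medium. PSA-NCAM+ cells, isolated on antibody beads against polysialylated NCAM, were collected at day 10, and neurons were collected 14 days after replating at day 7. Per the labels, slow/slow cells were plated more densely than WT cells, so that genotype, cell line and plating density cannot be told apart. According to the study, replicates of ESCs, NPCs and neurons came from separate differentiation experiments. Its description does not mention the PSA-NCAM+ libraries. There were 3 libraries in each of 8 groups, and total counts per library ranged from 32974432 to 104466886. In bulk RNA such as this, more RNA per cell and more cells of an expressing type cannot be told apart.

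Imprinting rests on DNA methylation marks that are set in the germ line at imprinting control regions and kept through early development, in part by the zinc finger protein ZFP57 with its cofactor TRIM28. Many imprinted genes act on growth. Igf2 encodes a fetal growth factor and Igf2r the receptor that clears it. Cdkn1c encodes a cyclin-dependent kinase inhibitor, Dlk1 a transmembrane ligand related to Notch ligands, Plagl1 and Peg3 zinc finger proteins, Mest a protein of the alpha/beta hydrolase fold, and Peg10 a protein derived from a retrotransposon. H19 and Meg3 are noncoding RNAs. In mouse, Igf2, Dlk1, Peg3, Mest, Peg10 and Plagl1 are known as paternally expressed genes, and H19, Meg3, Cdkn1c and Igf2r as maternally expressed ones. Total counts do not separate the parental copies, so the values below are levels of RNA and not measures of imprinting.

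In the GENCODE annotation of GRCm38 (release M21), Igf2 lies at chr7:142650766-142666816 and Cdkn1c at chr7:143458339-143461050, both on the minus strand of distal chromosome 7, and Peg3 lies at chr7:6703892-6730431, also on the minus strand. Mest is at chr6:30723547-30748465 and Peg10 at chr6:4747306-4760517, both on the plus strand. Dlk1 at chr12:109452823-109463336 and Meg3 at chr12:109541001-109571726 share the plus strand of chromosome 12. Plagl1 is at chr10:13060504-13131694 on the plus strand, and Igf2r at chr17:12682406-12769664 on the minus strand. Igf2 overlaps the coding gene Gm49394 on the same strand and Igf2os on the other, Mest overlaps Copg2 on the opposite strand, Igf2r overlaps the antisense RNA Airn, and Cdkn1c overlaps the antisense gene Gm44732. No source used here says if the strand was used in counting, and counts of these genes are uncertain by the reads of their partners.

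Promoter windows from 250 bases before to 50 bases after a transcript start were taken from RefSeq for GRCm38.p6. There were 13 windows for 7 members, and none for Cdkn1c, Peg10 and H19. Each was searched on both strands for TGCCGC, the hexamer that ZFP57 binds when methylated, and for GGGGCCCC, a G/C-rich element of the kind bound by the PLAGL1 protein, and the 2 motifs cannot overlap. Of 32851 windows of all genes, 11.6% held the hexamer and 1.08% the G/C-rich element, and the median window had 7 CpG. Both Mest starts are shown because Mest differed most between the genotypes. The Peg3 window is shown because Usp29, described below, starts head to head with Peg3, and the Plagl1 window because Plagl1 was the member lowest after the stem cell stage. Capitals mark the motifs, the hexamer in its reverse complement in Mest and Plagl1 and the G/C-rich element in Peg3.
Mest upstream start, chr6:30733256-30733555, plus strand: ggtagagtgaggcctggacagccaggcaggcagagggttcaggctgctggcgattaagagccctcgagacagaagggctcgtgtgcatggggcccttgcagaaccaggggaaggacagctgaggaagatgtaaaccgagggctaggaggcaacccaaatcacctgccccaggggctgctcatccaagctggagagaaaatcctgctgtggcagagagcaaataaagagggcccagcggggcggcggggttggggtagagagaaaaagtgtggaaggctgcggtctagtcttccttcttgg
Mest internal start, chr6:30737800-30738099, plus strand: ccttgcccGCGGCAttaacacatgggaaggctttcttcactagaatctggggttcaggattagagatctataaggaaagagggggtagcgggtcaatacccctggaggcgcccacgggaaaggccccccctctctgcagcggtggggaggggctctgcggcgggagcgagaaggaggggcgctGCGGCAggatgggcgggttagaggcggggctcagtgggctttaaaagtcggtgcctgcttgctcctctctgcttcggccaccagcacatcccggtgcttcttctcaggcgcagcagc
Peg3, chr7:6730370-6730669, minus strand: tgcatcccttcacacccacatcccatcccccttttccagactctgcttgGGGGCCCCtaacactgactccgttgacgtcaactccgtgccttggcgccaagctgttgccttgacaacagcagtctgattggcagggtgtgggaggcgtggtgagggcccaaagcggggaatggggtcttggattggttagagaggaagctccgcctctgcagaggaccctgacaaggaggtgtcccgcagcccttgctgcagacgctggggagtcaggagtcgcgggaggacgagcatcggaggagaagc
Plagl1, chr10:13090582-13090881, plus strand: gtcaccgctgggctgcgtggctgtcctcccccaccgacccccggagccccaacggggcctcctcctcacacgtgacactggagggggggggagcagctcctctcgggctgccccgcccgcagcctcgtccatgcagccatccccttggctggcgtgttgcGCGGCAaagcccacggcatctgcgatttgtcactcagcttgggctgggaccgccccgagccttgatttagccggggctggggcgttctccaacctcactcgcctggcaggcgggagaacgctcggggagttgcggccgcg

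The internal Mest window held 17 CpG and 2 hexamers, whereas the upstream Mest window held 8 CpG and 0 hexamers. The Peg3 window held 13 CpG and 1 G/C-rich element, and the Plagl1 window 26 CpG and 1 hexamer. Among the other windows, 1 of 4 of Igf2 and 1 of 2 of Meg3 held 1 hexamer each, and those of Dlk1 and Igf2r held 0. Igf2r had the most CpG of any member window, 34, and Dlk1 had 9. Another Mest entry starts 3 bases from the internal one and shares its sequence. These matches describe the reference sequence and say nothing of the methylation of these cells.

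Before the results, 2 libraries of PSA-NCAM+ cells have to be named. The Y-linked genes Ddx3y, Eif2s3y and Uty together reached 79.0 to 148 CPM (counts scaled to library size by TMM, the unit of level used throughout) in the 12 WT libraries and 0.393 to 1.94 CPM in 11 slow/slow libraries. The library labelled slow/slow PSA-NCAM+ replicate 1 had 62.6 CPM, which goes against its label. PSA-NCAM+ replicate 1 of both genotypes also stood apart in mesenchyme markers (10 genes, summed level), with 626 (WT) and 751 (slow/slow) CPM against 238 to 352 CPM in the other PSA-NCAM+ libraries. Comparisons that use slow/slow PSA-NCAM+ cells are therefore also given without the library labelled slow/slow replicate 1. As a check of the stages, 7 pluripotency markers summed to 7102 to 7843 CPM in ESCs and 210 to 270 CPM in neurons, and 7 neuronal markers to 209 to 388 CPM in ESCs and 3288 to 4424 CPM in neurons. WT NPCs were less clearly set apart, with 2398 to 2480 CPM of the pluripotency markers. Their 4 neural progenitor markers summed to 205 to 222 CPM, below the 248 to 293 CPM of WT ESCs. Of these 4 genes, 2 were called higher and 1 lower in WT NPCs than in WT ESCs. Ncam1 and its 2 polysialyltransferase genes summed to 26.7 to 31.1 CPM in WT PSA-NCAM+ cells, slightly above the 16.2 to 18.1 CPM of WT ESCs and far below the 715 to 745 CPM of WT neurons, and the 7 neuronal markers to 77.0 to 112 CPM in WT PSA-NCAM+ cells.

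**Figure D1:**
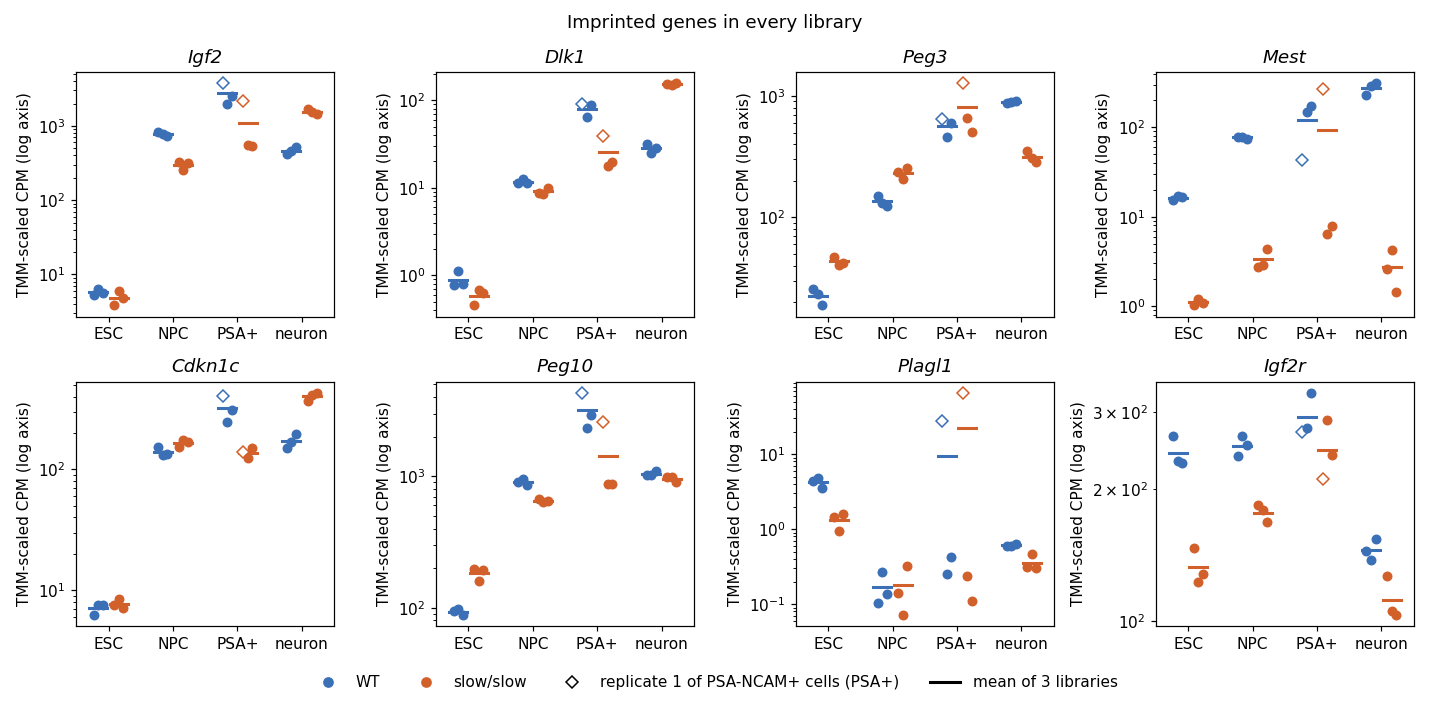
Level of each of the 8 members in every library, as TMM-scaled CPM on a log axis, by stage (PSA+ stands for PSA-NCAM+ cells) and genotype, with a bar at the mean of 3 libraries. Open diamonds are the first PSA-NCAM+ libraries, and Mest of slow/slow cells lies between 1.02 and 7.84 CPM in 11 libraries and at 268 CPM in the one drawn as a diamond.

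The first question was whether the members were stable through differentiation. With 8 members, the counts of changed members are read only beside the shares of all genes changed. In WT cells 7 of 8 changed between ESCs and NPCs (6 higher, 1 lower), beside 65.6% of all genes tested. When 1 library of these groups was left out, 5 or 6 members were called there. Between WT ESCs and PSA-NCAM+ cells 7 of 8 changed, all higher (71.2% of all genes), and between WT ESCs and neurons 7 of 8 changed, 6 higher and 1 lower (82.8%). The signed median log2 change of the members was 2.93, 4.87 and 4.35 at the 3 later stages. Over all genes, which went in both directions, it was 0.03, 0.05 and 0.08. In slow/slow cells 6 of 8 rose in NPCs (62.3% of all genes changed) and 8 of 8 in PSA-NCAM+ cells (73.4%), while in neurons 5 rose and 1 fell (82.5%). Without the library labelled slow/slow replicate 1, 7 of 8 rose in slow/slow PSA-NCAM+ cells, beside 73.1% of all genes changed, and Plagl1 no longer did. With all libraries, the corresponding medians in slow/slow cells were 2.12, 4.19 and 2.62, beside 0.04, 0.07 and 0.12 over all genes.

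Igf2, the growth factor gene, had the widest range of the members, 991-fold between its lowest and highest library. In WT ESCs it stood at 5.35, 6.34 and 5.68 CPM and in WT NPCs at 820, 790 and 724 CPM. WT PSA-NCAM+ cells had 3786, 1992 and 2513 CPM and WT neurons 415, 461 and 522 CPM. The 4 WT stages did not overlap, with the highest level in PSA-NCAM+ cells (479-fold over ESCs, FDR = 5.19e-12) and the lowest in ESCs. Peg10 was also highest in PSA-NCAM+ cells and lowest in ESCs of the WT line, with 94.1, 97.3 and 87.8 CPM in ESCs, 906, 956 and 854 in NPCs and 4333, 2341 and 2905 in PSA-NCAM+ cells. Neurons had 1022, 1022 and 1097 CPM of Peg10. Its rise from ESCs to PSA-NCAM+ cells was 34.3-fold (FDR = 5.24e-11).

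Cdkn1c, the cell cycle inhibitor gene, stood at 6.20, 7.49 and 7.58 CPM in WT ESCs and rose 19.9-fold to 153, 133 and 136 CPM in NPCs (FDR = 2.25e-14). In WT PSA-NCAM+ cells it had 406, 247 and 309 CPM and in WT neurons 152, 170 and 196 CPM, the neurons overlapping the NPCs. Dlk1 was low in WT ESCs, at 0.775, 1.12 and 0.791 CPM, and reached 11.3, 12.5 and 11.2 CPM in NPCs. It was highest in WT PSA-NCAM+ cells at 89.7, 63.7 and 87.7 CPM (92.0-fold over ESCs, FDR = 7.64e-14) and stood at 31.7, 25.2 and 28.6 CPM in WT neurons. For both genes every later WT library lay above every WT ESC library.

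Peg3 and Mest increased from stage to stage in WT cells and were highest in neurons. Peg3 levels were 26.0, 23.5 and 18.9 CPM in WT ESCs, 149, 132 and 124 in NPCs and 650, 459 and 603 in PSA-NCAM+ cells. WT neurons had 872, 894 and 908 CPM (39.1-fold over ESCs, FDR = 1.55e-13). Mest levels were 15.5, 17.2 and 16.5 CPM in WT ESCs, 78.7, 78.8 and 73.6 in NPCs and 43.0, 149 and 173 in PSA-NCAM+ cells. Neurons had 230, 288 and 313 CPM of Mest (16.9-fold over ESCs, FDR = 0.000461). WT PSA-NCAM+ cells and NPCs overlapped in Mest, because the first WT PSA-NCAM+ library lay below all NPC libraries. The rise of Mest from WT ESCs to NPCs (4.70-fold, FDR = 0.0299) did not pass when any of 5 of the 6 libraries was left out.

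Igf2r was the member that varied least, 3.22-fold between its lowest and highest library. WT levels were 265, 233 and 229 CPM in ESCs, 238, 264 and 253 in NPCs, 271, 277 and 333 in PSA-NCAM+ cells. WT neurons had 145, 138 and 154 CPM. ESCs and NPCs overlapped (log2 change 0.06 ± 0.11 SE, FDR = 0.677), and the neurons lay below every other WT library (1.67-fold lower than ESCs, FDR = 3.22e-06). The small rise in WT PSA-NCAM+ cells (log2 change 0.28 ± 0.11, FDR = 0.0300) was lost when WT ESC replicate 2 or 3, or WT PSA-NCAM+ replicate 3, was left out.

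Plagl1 behaved unlike the rest. It stood at 4.45, 4.82 and 3.58 CPM in WT ESCs and at 0.104, 0.272 and 0.135 CPM in WT NPCs, a 24.2-fold fall (FDR = 0.0339) that did not pass when any of 5 of the 6 libraries was left out. In WT neurons it had 0.599, 0.594 and 0.635 CPM, from 37 to 66 reads per library, below every WT ESC library. With all groups in the fit the difference from ESCs did not pass the threshold (log2 change -2.80 ± 1.57 SE, FDR = 0.103). Plagl1 was called there when only the groups compared were fitted, without the PSA-NCAM+ libraries in the estimate of the spread. In PSA-NCAM+ cells the first libraries of both genotypes had 27.5 CPM (WT) and 66.3 CPM (labelled slow/slow), from 2375 and 3246 reads, while the other 4 had 0.109 to 0.423 CPM. With both first libraries left out, an alternative chosen after the data had been seen, Plagl1 was 12.3-fold lower in WT PSA-NCAM+ cells than in WT ESCs (FDR = 1.26e-10) and 7.50-fold lower in slow/slow cells (FDR = 6.44e-08).

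To compare levels between genes, the authors' mean RPKM, which is scaled to gene length, was used. In WT ESCs the order was Igf2r (25.3 RPKM), Peg10 (13.2), Mest (9.23), Cdkn1c (3.48), Peg3 (2.45), Igf2 (1.14), Plagl1 (0.913) and Dlk1 (0.420). In WT PSA-NCAM+ cells Igf2 (622 RPKM) and Peg10 (517) led, followed by Cdkn1c (179), Mest (79.0), Peg3 (70.1), Dlk1 (43.3), Igf2r (35.1) and Plagl1 (2.22). Among the members with RPKM values, the receptor gene Igf2r was thus the most abundant in WT ESCs. In WT PSA-NCAM+ cells it was the growth factor gene Igf2. In slow/slow ESCs Peg10 (25.7 RPKM) led, ahead of Igf2r (13.6 RPKM). In neurons Mest led in WT (169 RPKM) and was the lowest but Plagl1 in slow/slow cells (1.84 RPKM), where Igf2 (365) and Cdkn1c (236) led.

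The second question was whether the stem cell lines differed. In ESCs 4 of 8 members changed between slow/slow and WT cells, 2 higher and 2 lower, beside 40.4% of all genes, and in NPCs 4 of 8, 1 higher and 3 lower, beside 56.7%. In PSA-NCAM+ cells 4 of 8 changed, all lower, beside 56.7% of all genes, and without the library labelled slow/slow replicate 1 6 of 8 changed, all lower, beside 68.9%. In neurons 6 of 8 changed, 3 higher and 3 lower, beside 51.9% of all genes. With 8 members, these counts are read only beside those shares. The direction and size for single members, given next, differed between stages.

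**Figure D2:**
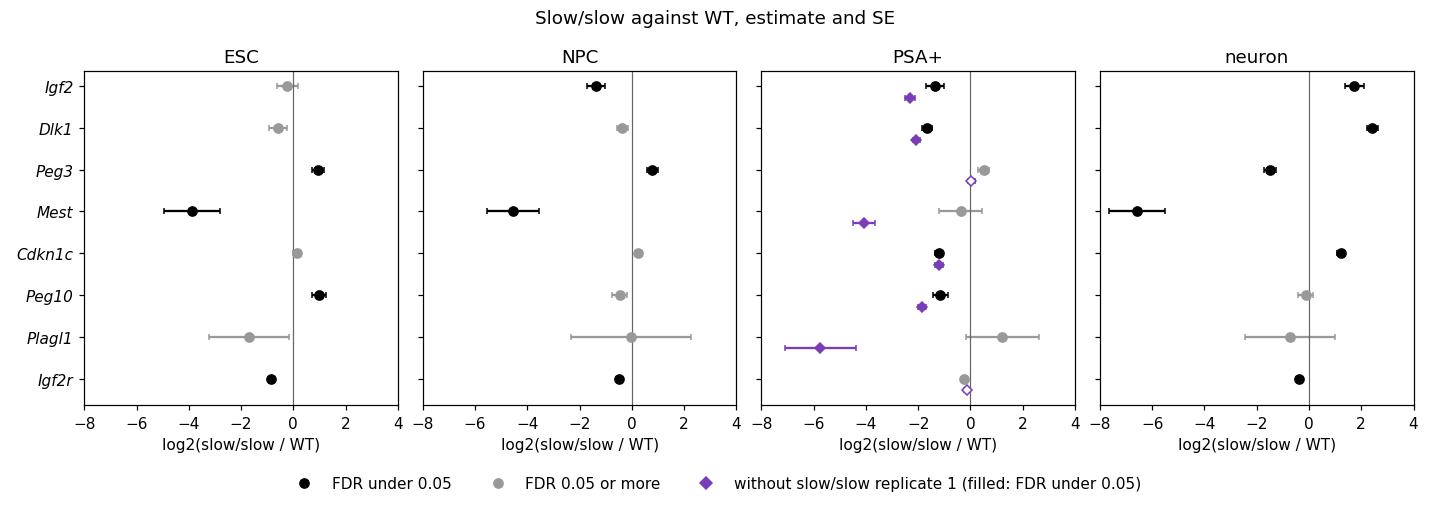
Estimated log2 ratio of slow/slow to WT cells for each member at each stage, with its SE from edgeR. Mest is lower in slow/slow ESCs, NPCs and neurons by 3.89 to 6.59 on the log2 scale, and in PSA-NCAM+ cells the estimate depends on 1 library (diamonds are the fit without it).

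Mest showed the widest separation between the lines. Slow/slow ESCs had 1.02, 1.21 and 1.08 CPM against 15.5 to 17.2 CPM in WT ESCs (14.8-fold lower, log2 change -3.89 ± 1.08, FDR = 0.00671). Slow/slow NPCs had 2.77, 2.91 and 4.36 CPM (23.3-fold lower than WT, FDR = 0.000663) and slow/slow neurons 2.62, 4.25 and 1.43 CPM (96.5-fold lower, log2 change -6.59 ± 1.07, FDR = 3.52e-05). The groups did not overlap at these 3 stages. In slow/slow PSA-NCAM+ cells the values were 268, 6.48 and 7.84 CPM, so that the library labelled slow/slow replicate 1 was higher than any WT PSA-NCAM+ library and the others were lower than all of them. The log2 change was -0.37 ± 0.82 (FDR = 0.718) with this library and -4.06 ± 0.42 (FDR = 3.86e-08) without it. Spliced exon-exon reads of Mest gave the same picture, with 145 to 197 scaled spliced reads (CPM) in WT neurons and 0.466 to 2.13 in slow/slow neurons. Within the slow/slow line Mest did not change past the threshold from ESCs to NPCs (log2 change 1.58 ± 1.12, FDR = 0.231) or to neurons (1.38 ± 1.12, FDR = 0.259), although the ESC libraries lay below all of them. The Mest effect was not called different between ESCs and neurons (log2 difference -2.71 ± 1.45, FDR = 0.143). All groups share 1 estimate of the spread of Mest, and when the groups compared were fitted alone, without the PSA-NCAM+ libraries, these 3 comparisons were called (FDR = 1.18e-06, 0.000601 and 8.99e-06).

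**Figure D3:**
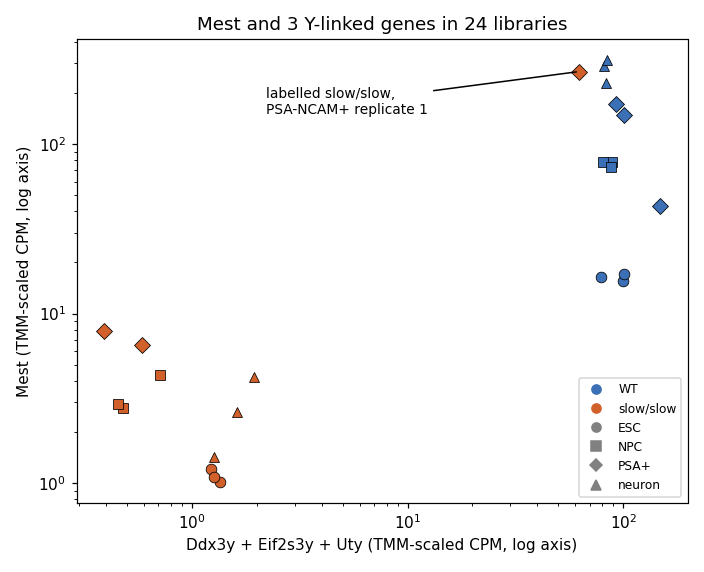
Mest against the summed level of Ddx3y, Eif2s3y and Uty in the 24 libraries, both as TMM-scaled CPM on log axes, with colour for the labelled genotype and shape for the stage. The library labelled slow/slow PSA-NCAM+ replicate 1 has 62.6 CPM of the Y-linked genes and 268 CPM of Mest, and every other slow/slow library is below 2 CPM and 8 CPM.

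Igf2, Dlk1 and Cdkn1c were lower in slow/slow than in WT PSA-NCAM+ cells and higher in slow/slow than in WT neurons. Igf2 did not differ past the threshold in ESCs, where slow/slow cells had 3.82, 5.99 and 4.80 CPM (FDR = 0.674). In slow/slow NPCs it had 332, 256 and 318 CPM, 2.58-fold lower than WT (FDR = 0.00297), with no overlap. Slow/slow PSA-NCAM+ cells had 2141, 559 and 536 CPM, 2.56-fold lower with all libraries (FDR = 0.00306) and 4.97-fold lower without the library labelled slow/slow replicate 1 (FDR = 2.45e-09). That library overlapped the WT range and the others did not. In slow/slow neurons Igf2 had 1672, 1528 and 1465 CPM, 3.34-fold higher than WT (FDR = 0.000447), with no overlap.

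Dlk1 had 0.452, 0.675 and 0.619 CPM in slow/slow ESCs and 8.70, 8.52 and 10.0 CPM in slow/slow NPCs, and neither difference from WT passed the test (FDR = 0.172 and 0.143), although the libraries did not overlap and the NPC groups fitted alone gave an FDR of 0.000950 for Dlk1. In slow/slow PSA-NCAM+ cells it had 38.7, 17.9 and 19.8 CPM, 3.17-fold lower than WT (FDR = 1.37e-06), and 4.19-fold lower without the library labelled slow/slow replicate 1 (FDR = 5.1e-11). In slow/slow neurons it had 152, 150 and 158 CPM, 5.38-fold higher than WT (log2 change 2.43 ± 0.21, FDR = 1.48e-08). No slow/slow library overlapped the WT range at these last 2 stages. Dlk1 in slow/slow cells was therefore highest in neurons, where in WT cells it was highest in PSA-NCAM+ cells.

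Cdkn1c did not differ past the threshold in ESCs (7.57, 8.45 and 7.09 CPM in slow/slow, FDR = 0.537) or NPCs (153, 176 and 168 CPM, FDR = 0.144), where the groups fitted alone gave a log2 change of 0.22 (FDR = 0.00814). It was 2.33-fold lower in slow/slow PSA-NCAM+ cells, at 139, 125 and 150 CPM (FDR = 4.42e-07), and 2.30-fold lower without the library labelled slow/slow replicate 1 (FDR = 6.8e-07). In slow/slow neurons it was 2.34-fold higher, at 369, 411 and 434 CPM (FDR = 4.31e-07). The libraries of the genotypes did not overlap at either stage. Marker lists of other cell types also differed between the genotypes at these stages. In neurons mesenchyme markers had a summed level of 281 to 348 CPM in WT neurons and 666 to 710 CPM in slow/slow neurons. Glia markers (6 genes) there summed to 66.6 to 87.3 CPM (WT) and 16.7 to 19.9 CPM (slow/slow), neuronal markers to 4081 to 4424 and 3288 to 3503 CPM, and Ncam1 with its polysialyltransferase genes to 715 to 745 and 395 to 418 CPM.

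Among PSA-NCAM+ cells trophoblast markers (7 genes) summed to 1254 to 3114 CPM (WT) and 263 to 1734 CPM (slow/slow, 263 to 304 CPM without the library labelled slow/slow replicate 1). Mesenchyme markers overlapped there, with 255 to 626 CPM (WT) and 238 to 751 CPM (slow/slow, 238 to 255 CPM without that library), and neuronal markers summed to 77.0 to 112 and 221 to 551 CPM. In NPCs, where Igf2, Mest and Igf2r were lower and Peg3 higher in slow/slow cells, trophoblast markers summed to 641 to 664 CPM (WT) and 239 to 323 CPM (slow/slow). Endoderm markers (11 genes) summed to 423 to 508 and 854 to 1131 CPM in these cells, pluripotency markers to 2398 to 2480 and 1355 to 1490 CPM, and neuronal markers to 97.7 to 106 and 249 to 289 CPM. Neural progenitor markers (4 genes) summed to 205 to 222 CPM in WT NPCs and 408 to 525 CPM in slow/slow NPCs. The part of these cell types in the members' differences was not tested.

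Peg10 was higher in slow/slow than in WT ESCs, at 197, 160 and 195 CPM (1.98-fold, FDR = 0.00912), and did not differ past the threshold in NPCs (675, 635 and 652 CPM, FDR = 0.163), although the groups did not overlap there and the NPC groups fitted alone gave an FDR of 1.86e-06. In slow/slow PSA-NCAM+ cells it had 2574, 867 and 870 CPM, 2.22-fold lower than WT (FDR = 0.00187), or 3.62-fold lower without the library labelled slow/slow replicate 1 (FDR = 2.95e-09). In slow/slow neurons it had 989, 984 and 902 CPM, which did not differ past the threshold from WT (log2 change -0.13 ± 0.28, FDR = 0.728). When the PSA-NCAM+ groups were fitted alone, neither Igf2 (FDR = 0.143) nor Peg10 (FDR = 0.134) was called there with the library labelled slow/slow replicate 1 included. With the replicate number as a block in that fit, an alternative chosen after the data had been seen, both were (FDR = 0.0138 and 0.0105).

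Peg3 was higher in slow/slow cells at the early stages and lower in neurons. It was 1.91-fold higher in slow/slow ESCs, at 47.6, 40.9 and 42.4 CPM (FDR = 0.00265), and 1.72-fold higher in slow/slow NPCs, at 237, 207 and 255 CPM (FDR = 0.00558). In slow/slow PSA-NCAM+ cells Peg3 had 1278, 654 and 500 CPM (log2 change 0.51 ± 0.22, FDR = 0.0578). With the replicate number as a block in the fit of all 24 libraries, the Peg3 change was 0.46 ± 0.19 (FDR = 0.0421). Same-numbered libraries deviated together in PSA-NCAM+ cells and not at the other stages. This rests on the first PSA-NCAM+ libraries, which stood apart in both genotypes. Without the block and without the library labelled slow/slow replicate 1, the change was 0.04 ± 0.15 (FDR = 0.812). In slow/slow neurons Peg3 had 354, 306 and 289 CPM, 2.82-fold lower than WT (FDR = 1.6e-05), with no overlap.

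Igf2r was lower in slow/slow ESCs, at 147, 123.1 and 128 CPM (1.83-fold, log2 change -0.87 ± 0.11, FDR = 3.21e-06), in slow/slow NPCs, at 184, 179 and 168 CPM (1.42-fold, FDR = 0.000601), and in slow/slow neurons, at 127, 105 and 103 CPM (1.30-fold, FDR = 0.00671). None of these groups overlapped WT. With upper-quartile scaling the Igf2r difference in neurons did not pass (FDR = 0.0826). In slow/slow PSA-NCAM+ cells Igf2r had 211, 288 and 240 CPM, not past the threshold with the library labelled slow/slow replicate 1 (log2 change -0.25 ± 0.11, FDR = 0.0553) or without it (-0.13 ± 0.11, FDR = 0.299), although it passed with DESeq2 size factors (FDR = 0.0317).

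Plagl1 was at 1.47, 0.941 and 1.58 CPM in slow/slow ESCs, below all WT ESC libraries, but the difference did not pass (log2 change -1.69 ± 1.52, FDR = 0.398). When the ESC groups were fitted alone, without the PSA-NCAM+ libraries in the estimate of the spread, it did, with a log2 change of -1.69 (FDR = 2.77e-06). Slow/slow NPCs had 0.142, 0.0716 and 0.320 CPM and slow/slow neurons 0.313, 0.461 and 0.301 CPM. In PSA-NCAM+ cells the log2 change was 1.22 ± 1.38 (FDR = 0.468) with all libraries. Without the library labelled slow/slow replicate 1 it was -5.74 ± 1.35 (FDR = 0.000778), a value that rests on the first WT library, and with both first libraries left out it was -0.99 ± 0.47 (FDR = 0.0653).

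Whether the genotype effect itself differed from that in ESCs was tested by the interaction of genotype and stage. It differed for 1 of 8 members in NPCs, beside 24.6% of all genes, and for 4 of 8 in PSA-NCAM+ cells, beside 27.1%. Without the library labelled slow/slow replicate 1, it differed for 7 of 8 in PSA-NCAM+ cells, beside 42.2% of all genes. In neurons it differed for 6 of 8, beside 42.1%. With all libraries, the largest of those called was Dlk1 in neurons (log2 difference 3.01 ± 0.39, FDR = 3.69e-06), followed by Peg3 in neurons (-2.43 ± 0.32, FDR = 5.38e-06) and Peg10 in PSA-NCAM+ cells (-2.14 ± 0.40, FDR = 0.000481). These comparisons share the ESC libraries. For Mest no such difference passed with all libraries in the fit.

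The neighbours of the members within their imprinted domains were followed next. In the Peg3 domain 2 neighbours were tested. Usp29, a deubiquitinase gene that starts head to head with Peg3, was lower in slow/slow cells at every stage, by 1.82 ± 0.20 on the log2 scale in ESCs (FDR = 4.64e-07), 1.38 in NPCs, 1.28 in PSA-NCAM+ cells, then 2.06 ± 0.16 in neurons (FDR = 2.95e-09). The Usp29 change in PSA-NCAM+ cells was -1.15 without the library labelled slow/slow replicate 1 (FDR = 3.53e-05). Usp29 in neurons was at 49.4, 44.6 and 43.2 CPM in WT and 10.6, 11.4 and 10.7 CPM in slow/slow cells. Peg3 and Usp29 therefore had opposite signs in ESCs and NPCs and the same sign in neurons. Zim1, on the other side of Peg3, was not called at any stage (FDR = 0.500 to 0.917), but was lower in slow/slow PSA-NCAM+ cells without the library labelled slow/slow replicate 1 (log2 change -0.77, FDR = 0.00574).

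In the Mest domain 3 neighbours were tested. Cpa4, a low-level carboxypeptidase gene, was called lower in slow/slow ESCs (log2 change -4.87) and higher in slow/slow neurons (2.52). It was not called in NPCs (-1.90) or in PSA-NCAM+ cells (-0.68, and -0.53 without the library labelled slow/slow replicate 1). Copg2 overlaps the end of Mest from the opposite strand and encodes a coatomer subunit. Copg2 stood at 88.5, 86.1 and 87.0 CPM in WT and 81.7, 81.4 and 81.1 CPM in slow/slow ESCs (FDR = 0.144). In neurons Copg2 was at 96.7, 95.8 and 94.8 CPM in WT and 160, 160 and 145 CPM in slow/slow cells, 1.62-fold higher (FDR = 2.39e-09), where Mest was 96.5-fold lower. Klf14, a transcription factor gene beyond Copg2, had a mean of at most 1.15 CPM in any group and was called lower in slow/slow ESCs and higher in slow/slow NPCs and PSA-NCAM+ cells (log2 change 1.20 in PSA-NCAM+ cells, and 1.45 without the library labelled slow/slow replicate 1).

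In the Peg10 domain 7 neighbours were tested, of which 3 were higher and 0 lower in slow/slow ESCs, beside 40.4% of all genes changed. Sgce, which encodes epsilon-sarcoglycan and starts next to Peg10 on the opposite strand, was at 2.08, 2.61 and 2.50 CPM in WT and 7.01, 6.71 and 7.65 CPM in slow/slow ESCs (2.98-fold, FDR = 5.89e-05), the same direction as Peg10. In the other stages Sgce was not called (FDR = 0.866, 0.192 and 0.0510 by order of stage). Casd1, which encodes a sialate O-acetyltransferase, was higher in slow/slow cells at all 4 stages, by 1.62-fold to 1.97-fold. Ppp1r9a, which encodes neurabin, was also higher at all 4 stages, by 1.31-fold to 1.98-fold. Without the library labelled slow/slow replicate 1 the log2 changes in PSA-NCAM+ cells were 0.79 for Casd1, 0.82 for Ppp1r9a, both called, and -0.17 for Sgce (FDR = 0.256). Peg10 itself changed sign between ESCs and PSA-NCAM+ cells.

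In the Dlk1-Dio3 domain 4 neighbours were tested. Dio3, the gene of a thyroid hormone-inactivating deiodinase at the far end of the domain, did not differ past the threshold in ESCs (19.01, 22.2 and 25.4 CPM in WT against 21.8, 23.1 and 21.6 CPM). Dio3 was 6.23-fold lower in slow/slow NPCs (FDR = 8.4e-08) and 12.3-fold lower in slow/slow PSA-NCAM+ cells, at 2.98, 1.39 and 1.98 CPM against 29.8, 29.9 and 17.3 CPM in WT (FDR = 1e-09), or 15.0-fold lower without the library labelled slow/slow replicate 1. In neurons, where Dlk1 was 5.38-fold higher in slow/slow cells, Dio3 had 2.44 to 3.12 CPM in slow/slow and 2.84 to 2.90 CPM in WT cells (FDR = 0.750). Rtl1, a retrotransposon-derived gene, was higher in slow/slow NPCs and lower in slow/slow PSA-NCAM+ cells, with log2 changes of 0.87 and -0.86 (-1.15 without that library).

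On distal chromosome 7, 4 neighbours of Igf2 and 8 genes around Cdkn1c were tested. Of the Igf2 neighbours, Th and Tspan32 were lower in slow/slow cells at the first 3 stages and higher in neurons. Lsp1, a leukocyte actin-binding protein gene, was lower in slow/slow ESCs (log2 change -1.75) and higher in neurons (1.26), and Mrpl23, a mitochondrial ribosomal protein gene, was lower in NPCs (-0.98) and PSA-NCAM+ cells (-1.36). Tspan32, a tetraspanin gene, was lower by 2.30, 1.29 and 2.16 on the log2 scale at those stages, and in neurons it reached at most 0.164 CPM. Without the library labelled slow/slow replicate 1 all 4 were lower in PSA-NCAM+ cells, with log2 changes of -2.01 for Th, -2.08 for Tspan32, -0.43 for Lsp1 and -1.21 for Mrpl23. In that fit 68.9% of all genes changed between the genotypes. Th, which encodes tyrosine hydroxylase, was at 0.476, 0.562 and 0.520 CPM in WT and 8.21, 9.59 and 8.003 CPM in slow/slow neurons (log2 change 4.05, FDR = 2.66e-07). Around Cdkn1c, 4 genes were lower and 0 higher in slow/slow ESCs, beside 40.4% of all genes changed. In NPCs 6 were lower and 2 higher, beside 56.7% of all genes. Ascl2, a trophoblast transcription factor gene, was at 15.2, 10.0 and 11.1 CPM in WT and 1.33, 0.714 and 1.00 CPM in slow/slow PSA-NCAM+ cells (log2 change -3.59, FDR = 5.16e-10). Phlda2, a growth regulator gene with a pleckstrin homology domain, was lower at the first 3 stages, by 0.89, 0.56 and 1.82 on the log2 scale. Slc22a18, which encodes a transporter, was lower at those stages and higher in neurons (log2 change 1.24). These 3 genes kept their call in PSA-NCAM+ cells without the library labelled slow/slow replicate 1, with log2 changes of -3.80 for Ascl2, -1.65 for Phlda2 and -2.76 for Slc22a18. Kcnq1 was not called in ESCs and was lower in NPCs (log2 change -2.25) and PSA-NCAM+ cells (-1.84, and -2.11 without that library). It was higher in neurons (2.55), where 2 of the 8 genes were higher and 2 lower, beside 51.9% of all genes changed.

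**Figure D4:**
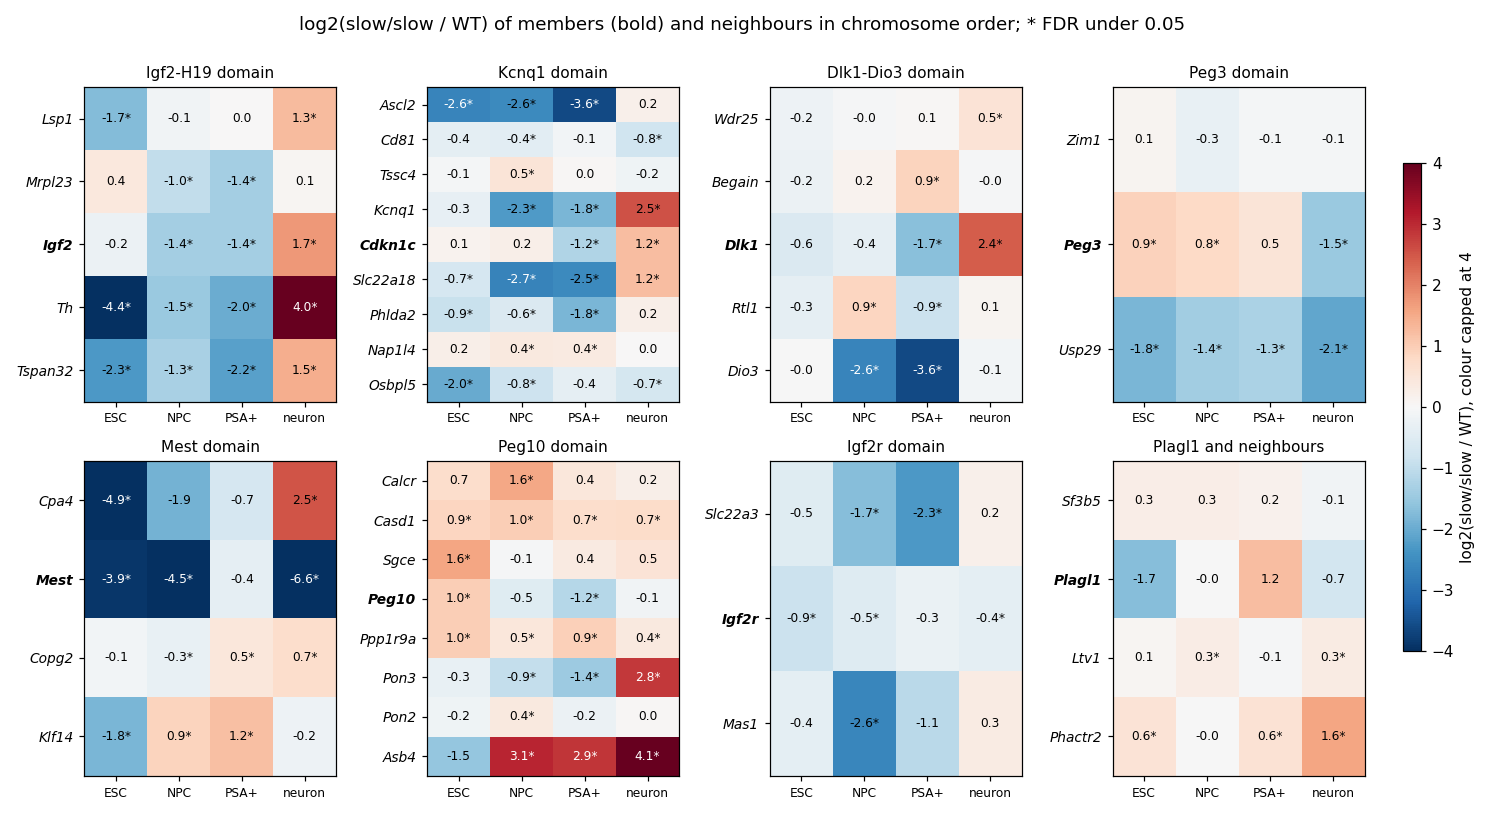
Log2 ratio of slow/slow to WT cells for each member (bold) and the tested neighbours in its domain, in chromosome order from top to bottom, at the 4 stages (PSA+ stands for PSA-NCAM+ cells) with all libraries. An asterisk marks an FDR under 0.05, and Usp29, Casd1 and Ppp1r9a are called in 1 direction at all 4 stages.

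Near Igf2r, 2 neighbours were tested. Slc22a3, a cation transporter gene, was at 0.891, 1.03 and 1.32 CPM in WT and 0.225, 0.224 and 0.207 CPM in slow/slow PSA-NCAM+ cells (log2 change -2.29, FDR = 1.27e-07, and -2.28 without the library labelled slow/slow replicate 1), where Igf2r was not called. Mas1, which encodes a G protein-coupled receptor, reached at most 0.545 CPM in any library. Of the 3 neighbours of Plagl1, Phactr2, a phosphatase and actin regulator gene, was higher in slow/slow ESCs, PSA-NCAM+ cells and neurons, with a log2 change of 1.59 in neurons (FDR = 2e-08) and 0.57 in PSA-NCAM+ cells (0.49 without that library), and Ltv1, a ribosome assembly factor gene, was higher in NPCs and neurons.

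Meg3 was measured by reads spliced over its 5 introns, scaled like the counts (spliced CPM). WT ESCs had 31.0, 26.9 and 30.1 spliced CPM and slow/slow ESCs 20.7, 19.3 and 18.4, with no overlap. In NPCs the values were 48.2, 52.4 and 44.1 in WT and 51.6, 51.4 and 44.6 in slow/slow cells, and in neurons 58.2, 44.8 and 44.2 in WT and 56.9, 50.9 and 44.3 in slow/slow cells. At both stages the genotypes overlapped. PSA-NCAM+ cells had 67.8, 35.1 and 39.5 in WT and 57.0, 26.0 and 20.1 in slow/slow cells, the first library of each genotype being the highest. No test was made on these values. In neurons Meg3 spliced reads thus overlapped between the genotypes, whereas Dlk1, its neighbour, was 5.38-fold higher in slow/slow cells.

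Splicing was described by PSI, the percent of reads that include an event, for events that passed the coverage filters in all 6 libraries of a stage. An event counted as different when the means differed by over 10 points and the genotypes did not overlap, which is a description with no p. This held for 1 of 65 member events in ESCs (0.405% of all events), 3 of 83 events in NPCs (1.23%), 0 of 96 events in PSA-NCAM+ cells (0.441%, and 3 member events without the library labelled slow/slow replicate 1) and 3 of 90 in neurons (1.16%). Igf2r held 56 of these events at each stage, and 0 of them differed by that rule.

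Meg3 accounted for the 3 events in neurons. Its exon at chr12:110783158-110783251 (mm9) had a PSI of 17.2, 20.0 and 18.0% in WT and 37.0, 36.4 and 35.6% in slow/slow neurons, from 541 to 1731 reads per library. In NPCs the same exon went the other way, with 57.9, 65.9 and 59.9% in WT and 45.7, 46.1 and 50.5% in slow/slow cells. In ESCs (means 50.6% and 53.8%) the genotypes overlapped. They also overlapped in PSA-NCAM+ cells, with 53.8, 45.3 and 48.2% in WT and 43.2, 52.8 and 52.6% in slow/slow cells, the first of which is the library labelled slow/slow replicate 1. A second Meg3 exon at chr12:110787501-110787581 (mm9), which passed the filters in neurons alone, had 21.3, 20.3 and 22.2% in WT and 42.9, 46.8 and 42.0% in slow/slow cells. The intron just before the first of these exons, chr12:110782953-110783157 (mm9), was retained at 65.3, 58.6 and 62.6% in WT and 42.5, 44.7 and 51.9% in slow/slow neurons, so that retention was lower where the exon was included more.

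Cdkn1c held the event of ESCs, a choice between 2 neighbouring 5' splice sites, at positions 150645700 and 150645664 of chromosome 7 (mm9), that end the same exon. Use of the site at position 150645700 was 69.0, 60.0 and 59.1% in WT and 75.7, 83.9 and 90.9% in slow/slow ESCs, on 22 to 37 reads per library. In NPCs, on 634 to 1061 reads, it was 49.6, 49.5 and 46.6% in WT and 68.4, 69.8 and 69.6% in slow/slow cells. In PSA-NCAM+ cells the library labelled slow/slow replicate 1 (54.3%) lay within the WT range of 51.1 to 58.6%, and the other slow/slow libraries had 70.5 and 70.1%. In neurons the genotypes overlapped, with means of 68.1% and 67.8%. Thus the Cdkn1c splice site differed in NPCs, where its level did not pass the test, and overlapped in neurons, where its level was 2.34-fold higher. The remaining event in NPCs was a Mest intron that rested on 15 reads in each slow/slow library and is not interpreted.

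**Figure D5:**
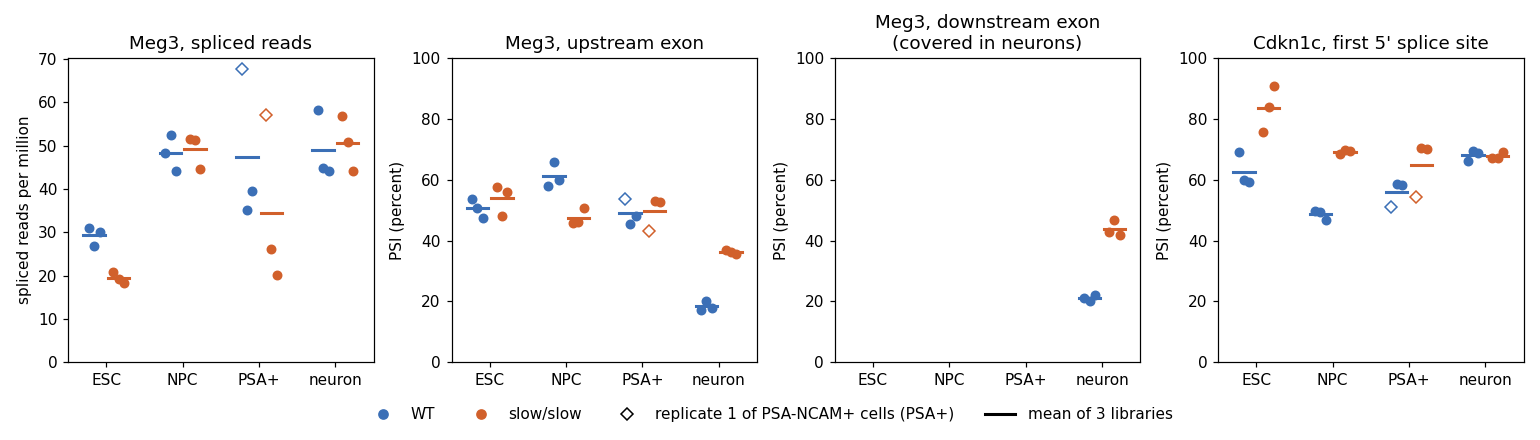
Meg3 spliced reads scaled to library size (first panel) and PSI in percent of 2 Meg3 exons and of the Cdkn1c 5' splice site at position 150645700, per library, by stage (PSA+ stands for PSA-NCAM+ cells) and genotype, with bars at the means. In neurons the Meg3 exons lie at 17.2 to 22.2% in WT and 35.6 to 46.8% in slow/slow cells, while the spliced reads overlap.

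A list of 56 other imprinted genes, of which 44 were tested, was counted beside the members. In slow/slow against WT ESCs 10 were higher and 10 lower, in NPCs 19 and 14, among PSA-NCAM+ cells 18 and 13 (20 and 20 without the library labelled slow/slow replicate 1), and in neurons 11 and 14. These counts stand beside 40.4%, 56.7%, 56.7% (68.9% without that library) and 51.9% of all genes changed at the 4 stages, as do those of the next lists. The median log2 change of the other imprinted genes was -0.10, 0.25, 0.30 (0.15 without that library) and -0.02 at the 4 stages. The largest changes in ESCs were those of Ascl2 (-2.65), the phospholipid flippase gene Atp10a (2.14), the lipid transfer gene Osbpl5 (-2.01) and the amino acid transporter gene Slc38a4 (-1.88). In NPCs they were Magel2, a ubiquitin ligase regulator (3.64), Asb4, which has ankyrin repeats and a SOCS box (3.06), the chromatin gene Sfmbt2 (-2.68) and Slc22a18 (-2.68). In neurons they were Nap1l5, related to nucleosome assembly proteins (-4.37), Asb4 (4.11), the potassium channel gene Kcnk9 (-2.91) and the membrane proteolipid gene Nnat (-2.60). In PSA-NCAM+ cells Kcnk9 (3.74), Dio3 (-3.62), Ascl2 (-3.59) and Sfmbt2 (-3.33) led, and without the library labelled slow/slow replicate 1 Kcnk9 was at 4.13, Dio3 at -3.91, Ascl2 at -3.80 and Sfmbt2 at -4.19.

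Of the insulin-like growth factor system, 16 genes other than Igf2 and Igf2r were tested, and 4 were higher and 3 lower in slow/slow ESCs, 6 and 6 in NPCs, 8 and 4 in PSA-NCAM+ cells (8 and 6 without the library labelled slow/slow replicate 1) and 7 and 3 in neurons. Igfbp5, a binding protein gene, was higher by 3.95 ± 0.20 on the log2 scale in slow/slow NPCs (FDR = 1.97e-11) and by 3.63 in PSA-NCAM+ cells (3.84 without the library labelled slow/slow replicate 1), where Igf2 was lower. In neurons Igfbp5 was lower by 1.51 and Igfbp4 higher by 1.75 ± 0.23 (FDR = 3.5e-06), where Igf2 was higher. Igf1, the other growth factor gene, was lower in NPCs by 1.90 (FDR = 0.000356).

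A list of 14 genes held factors that set or keep methylation imprints and also the Tet genes, whose enzymes oxidise methylated cytosine. Of these, 5 were higher and 3 lower in slow/slow ESCs, 7 and 2 in NPCs, and 2 and 0 in neurons. In PSA-NCAM+ cells 4 were higher and 5 lower (9 and 4 without the library labelled slow/slow replicate 1). Zfp57 was lower in NPCs by 0.88 ± 0.13 (FDR = 9.44e-06) and in PSA-NCAM+ cells by 1.21 ± 0.13 (FDR = 1.72e-07) on the log2 scale (log2 change -1.39 without the library labelled slow/slow replicate 1), and was not called in ESCs (FDR = 0.571) or neurons (FDR = 0.280). Dppa3, which protects maternal methylation in the early embryo, was lower by 2.34 in NPCs and higher by 3.44 in neurons. Dnmt3l, the cofactor of the de novo methyltransferases, was lower in ESCs by 1.39 (FDR = 0.0027). A list of 7 genes held the Cip/Kip inhibitor genes Cdkn1a and Cdkn1b and cell cycle partners of Cdkn1c. Of these, 2 were higher in slow/slow ESCs, and 4 were higher and 1 lower in both NPCs and PSA-NCAM+ cells. In PSA-NCAM+ cells without the library labelled slow/slow replicate 1, 5 were higher and 1 lower. In neurons 2 were higher and 2 lower. Ccnd2, a D-type cyclin gene, was higher by 2.83 in NPCs and lower by 0.36 in neurons.

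The genes whose pattern over the 24 libraries was most like that of a member, by Pearson's r of log2 CPM, were named as a description, since the libraries share stages and lines. They were Igfbp4 (r = 0.992) and the endocytic receptor gene Mrc2 (0.989) for Igf2, and Fgfr2 (0.985) and Igfbp4 (0.979) for Cdkn1c. For Peg10 they were Anxa2 (0.981) and Ehd2 (0.968), for Peg3 Tnc (0.980) and Masp1 (0.977), and for Dlk1 Arhgap31 and Irf2 (both 0.965). The likeness was weaker for Igf2r (Bend4, 0.914, and Ep300, 0.909), Mest (Uty, 0.904, and Plcd4, 0.900) and Plagl1 (Cyp1a1, 0.861, and Mpzl3, 0.844). Among the members the closest pair was Igf2 and Cdkn1c (r = 0.973), followed by Igf2 and Peg10 (0.949).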

How the data were processed

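Poly(A) RNA was sequenced from 24 libraries (stranded kit, paired ends). The authors mapped reads to mm9 and counted them per gene with vast-tools, and the deposited raw counts are used here. Per the labels, bcl2fastq (version 2.17.1.14) and edgeR were also part of their processing. The deposited RPKM values are group means made by the authors, and the deposited percent spliced in (PSI) comes with read numbers per event. Columns with the authors' own log2 fold changes and FDR values, and a second splicing table, were not used. Total counts of 32974432 to 104466886 per library set the precision. Counting error is large for low genes, such as Plagl1 in NPCs (3 to 18 reads) and Dlk1 in ESCs (20 to 51 reads).

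Counts were scaled by TMM and tested by the quasi-likelihood F test of edgeR 4.0.16 (R 4.3.3) on all 24 libraries with 1 mean per group, after filterByExpr (16627 of 21553 genes with counts). P-values were adjusted over all genes tested by Benjamini-Hochberg (FDR), with 0.05 as the threshold. Where a log2 change is given with ±, the second value is the SE. Genotype, stage against ESC and their interaction were tested, and p-values measure the spread between libraries only. DESeq2 1.42.0, other scalings, no filter, a replicate block, the compared groups alone and each library left out were the alternatives. Same-numbered WT and slow/slow libraries deviated together in PSA-NCAM+ cells (correlations of deviations 0.540, 0.455 and 0.401) and not at the other stages (-0.084 to 0.068), so that the numbers were taken to pair libraries in PSA-NCAM+ cells. The edgeR test was also run on simulated counts with known fold changes set in slow/slow ESCs.

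Named genes are all members, genes in their domains, the up to 4 most changed genes called per list and comparison, and the 2 genes most like each member (log2 of CPM with 0.5 added, mean of at least 1 CPM). Members and lists were chosen with earlier results of these data known.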

Additional observations from a re-analysis of the deposited data

Results flagged for a closer look

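The genotype effect of several members differed from the one in ESCs by the edgeR interaction test (a log2 difference between slow/slow against WT at a later stage and the same in ESCs). In NPCs this was Peg10, with -1.45 (FDR = 0.0117), where slow/slow cells had the higher level in ESCs and not in NPCs.

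In PSA-NCAM+ cells it was Igf2r, with 0.62 (FDR = 0.0052), Cdkn1c, with -1.345 (FDR = 5.37e-05), Dlk1, with -1.08 (FDR = 0.0474), and Peg10, with -2.135 (FDR = 0.000481). Without the library labelled slow/slow replicate 1 these were 0.73 for Igf2r, -1.35 for Cdkn1c, -1.51 for Dlk1 and -2.85 for Peg10, all called. With all other libraries in the fit, the Dlk1 value did not pass when any of 8 of the 12 libraries was left out (FDR of up to 0.173).

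In neurons the effect differed for Peg3, with -2.43 (FDR = 5.38e-06), Igf2r, with 0.49 (FDR = 0.015), Cdkn1c, with 1.10 (FDR = 0.000223), Dlk1, with 3.01 (FDR = 3.69e-06), Igf2, with 1.98 (FDR = 0.00563), and Peg10, with -1.11 (FDR = 0.0308). Igf2r was lower in slow/slow cells at both stages, by less in neurons. The Peg10 value did not pass when any of 11 of the 12 libraries was left out (FDR of up to 0.0663).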

How the results depend on the processing

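Most calls of single members kept their direction and their side of the threshold. Requiring a 2-fold change left 1 member called in ESCs and 2 in NPCs, and of the other imprinted genes 10 in ESCs, 18 in both NPCs and PSA-NCAM+ cells and 12 in neurons. Fitting only the groups compared, which leaves fewer samples to estimate the spread, gave 7 members in NPCs, 2 in PSA-NCAM+ cells, 20 other imprinted genes in PSA-NCAM+ cells and 5 members with a different effect in NPCs. Leaving out each library gave 4 to 7 members changed between genotypes in PSA-NCAM+ cells (7 without WT replicate 1, 6 without the library labelled slow/slow replicate 1), 3 to 7 members with a different effect there (7 without the library labelled slow/slow replicate 1), 0 to 3 splicing events there (3 without that library), and 3 to 9 splicing events in neurons (9 without slow/slow replicate 3). Without the coverage filter, 3 splicing events differed in ESCs, 5 in NPCs and 15 in neurons, and with a PSI difference over 15 points 1 in NPCs.

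Plagl1 in PSA-NCAM+ cells changed sign with its first libraries. Its genotype change was -5.74 and its interaction -4.06 without the library labelled slow/slow replicate 1. Against ESCs it was -3.62 in WT with both first libraries left out, and in slow/slow cells -2.914 without the library labelled slow/slow replicate 1 and -2.907 with both left out. Without WT replicate 1 alone, the genotype change of Plagl1 was 6.00 (FDR = 0.00743) and its interaction 7.70. Over the fits without 1 library, its slow/slow change against ESCs ran from -2.914 to 4.67 and its interaction from -4.06 to 7.697.

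When the replicate number was added as a block, 5 members in place of 4 changed between the genotypes in PSA-NCAM+ cells (Peg3 was added), and 4, 4 and 6 in ESCs, NPCs and neurons. Against ESCs, Igf2r in slow/slow neurons (FDR = 0.0539) and Plagl1 in slow/slow PSA-NCAM+ cells (FDR = 0.190) lost their call with the block, and the block changed no other call of a member.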
